A study of Mus musculus with 12 samples.

Results

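mmu-miR-23a, mmu-miR-23b, mmu-miR-27a, mmu-miR-27b and mmu-miR-24 are the mature miRNAs of 2 paralogous clusters, and they were chosen by name, without their star forms, as 5 of the 469 miRNAs listed in the count files. MiRNA-Seq had been carried out on frontal cortex (FCx) and hippocampus (HP) of untreated male C57BL/6J mice at 8 weeks of age. The frontal cortex was cortical tissue taken from a coronal slice whose position relative to bregma the labels give, and the hippocampus was taken whole. For each region, tissue of 3 mice was pooled before the RNA was extracted, and 3 libraries were made from that 1 pool with the indexes 3, 7 and 11. The index is a 6-nucleotide tag at the 3′ end of the 5′ RNA adaptor, so that it was ligated directly to the first base of each miRNA. Each library was sequenced in a lane of its own and once more in a lane that held all 3 libraries of its region. Both runs were summed here, which left 6 libraries. Since the libraries of a region share 1 pool of RNA, the spread between them is technical, and p-values between regions measure that spread only. In the test between indexes, the regions serve as the replicates of each index.

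MiRNAs guide the silencing machinery to messenger RNAs, mainly through pairing of the seed near their 5′ end. Each of the clusters is transcribed as 1 primary transcript, from which 3 hairpins are cut, and a mature miRNA is released from an arm of each hairpin. miR-23a, miR-27a and one copy of miR-24 come from one cluster, and miR-23b, miR-27b and the other copy of miR-24 come from the other. In brain, miR-23 and miR-27 are known mainly from astrocytes and blood vessels, and miR-24 is expressed in many cell types.

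The mature sequences from the 3′ arms bear on which members can be told apart by their reads. They are given 5′ to 3′ as RefSeq lists them, with the seed (bases 2 to 8) in capitals. The RefSeq table used here holds no entry for the mature mmu-miR-23b from the 3′ arm, so its sequence is not given.

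mmu-miR-23a-3p: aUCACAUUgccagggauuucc
mmu-miR-27a-3p: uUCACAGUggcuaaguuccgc
mmu-miR-27b-3p: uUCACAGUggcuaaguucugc
mmu-miR-24-3p: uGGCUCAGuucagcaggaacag

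mmu-miR-27a and mmu-miR-27b share the seed UCACAGU and differ by the substitution C19U over 21 bases, with positions counted from 1 at the 5′ end and the base of mmu-miR-27a first. A read of mmu-miR-27 that ends before base 19 therefore carries no difference between the paralogs. No further mature miRNA of the RefSeq table had the seed UCACAGU. The seed GGCUCAG of mmu-miR-24-3p was shared with mmu-miR-5124b, mmu-miR-6369, mmu-miR-6410 and mmu-miR-6413. mmu-miR-24 has the same mature sequence in both clusters, and the count files accordingly list it once. The first 17 bases of mmu-miR-23a were found at 2 hairpins of the clusters. Longer reads were not placed evenly: of those of at least 20 nt, the genome alignments placed 14973 at the hairpin of mmu-miR-23a and 30563 at that of mmu-miR-23b. How many of them were placed at the wrong hairpin was not tested. The tags that were ligated in front of these sequences were UUAGGC for index 3, CAGAUC for index 7 and GGCUAC for index 11.

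In the genome build NCBIM37, all 6 hairpins lie on the plus strand. The cluster on chromosome 8 spans 404 nt, with Mir23a at chr8:86732417-86732491, Mir27a at chr8:86732571-86732657 and Mir24-2 at chr8:86732714-86732820. It overlaps no annotated gene in the GENCODE annotation of that build other than its own hairpins. The cluster on chromosome 13 spans 792 nt, with Mir23b at chr13:63401792-63401865, Mir27b at chr13:63402020-63402092 and Mir24-1 at chr13:63402516-63402583. These 3 hairpins lie on the sense strand within the protein-coding gene 2010111I01Rik and overlap none of its exons.

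The 3 FCx libraries held 391410 to 1461732 miRNA counts and the 3 HP libraries 3206221 to 4956117, so that values from HP rest on more counts. The members together took 0.283% to 1.64% of the counts in FCx and 0.386% to 1.37% in HP, with the highest share at index 3 in both regions. The summed level of 3 neuronal miRNAs (miR-124, miR-9 and miR-128) was 241123 to 271724 CPM (counts scaled to a library total of 1000000) in FCx and 103071 to 167715 CPM in HP. miR-128 was the highest of these 3 in each library and was higher in FCx (177013 to 208464 CPM) than in HP (63974 to 110495 CPM). miR-124 was also higher in FCx at each index, but ranged from 4091 to 57775 CPM between indexes in FCx and from 2504 to 39174 CPM in HP. miR-9 was higher in HP at each index. The 4 miRNAs of vessels (miR-126-3p, miR-126-5p, miR-143 and miR-145) summed to 274 to 691 CPM in FCx and 272 to 839 CPM in HP, and 3 miRNAs of blood cells (miR-451, miR-144 and miR-486) to 64.4 to 172 CPM and 35.0 to 165 CPM. All of these markers were listed, with miR-144 at 0 in 2 FCx libraries, and the part of other cell types in the levels of the members was not tested.

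mmu-miR-23a, mmu-miR-23b and mmu-miR-24 varied more between indexes than between brain regions. mmu-miR-23b, the member with the widest range, reached 9192 CPM in FCx with index 3, 165 CPM with index 7 and 918 CPM with index 11. In HP it reached 7993, 297 and 652 CPM at the same indexes. The level at index 3 was thus 55.8-fold that at index 7 in FCx and 26.9-fold in HP, although each set of libraries was made from the same RNA. Over the 139 miRNAs that averaged 100 CPM or more, the median range between indexes was 4.32-fold in FCx and 3.85-fold in HP, and only 2 miRNAs in FCx and 7 in HP had a wider range than mmu-miR-23b. By level, mmu-miR-23b ranked as the 19th miRNA in the libraries with index 3, and 106th in FCx and 87th in HP with index 7.

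mmu-miR-23a, the paralog of mmu-miR-23b from chromosome 8, varied in the same order. Its level was 5222 CPM with index 3, 236 CPM with index 7 and 978 CPM with index 11 in FCx. The levels in HP were 3392, 226 and 436 CPM. Index 3 was the highest and index 7 the lowest in both regions, by 22.1-fold in FCx and 15.0-fold in HP.

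mmu-miR-24, the product of both clusters, went another way. At indexes 3, 7 and 11 it reached 248, 850 and 230 CPM in FCx, and in HP 206, 920 and 198 CPM. Index 7 gave the highest level, and the range was 3.70-fold in FCx and 4.64-fold in HP, close to the median over abundant miRNAs.

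mmu-miR-27b, which is cut from the same transcript as mmu-miR-23b, had nearly the same level at every index. In FCx the level was 1512, 1363 and 1266 CPM, and in HP 1837, 2082 and 2188 CPM. The range was 1.19-fold in both regions, and 3 of the 139 miRNAs in FCx and 4 in HP had a smaller one. mmu-miR-27a, the least abundant member on average in both regions, reached 217, 222 and 290 CPM in FCx and 269, 560 and 382 CPM in HP. Its range was 1.33-fold in FCx and 2.08-fold in HP.

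**Figure D1:**
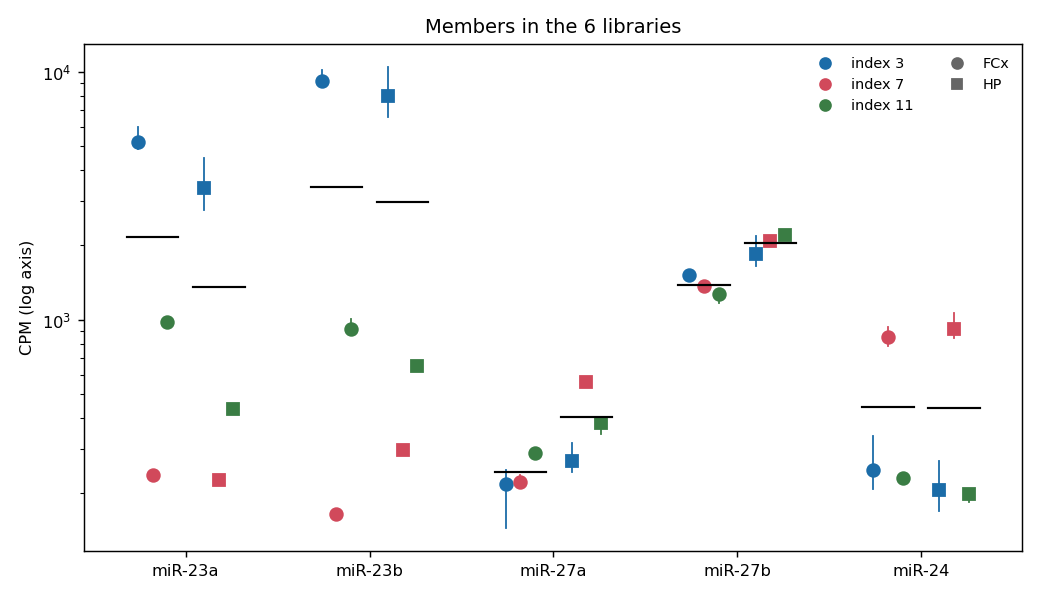
Level of each member in CPM (log axis) in the 6 libraries, with FCx as circles and HP as squares and the index by colour. Vertical lines join the individual and the pooled run of a library and black bars are the means of 3 libraries. The points of miR-23a and miR-23b spread most, with index 3 on top and index 7 at the bottom, whereas those of miR-27b lie close together within each region.

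As means of the 3 libraries, the order in both regions was mmu-miR-23b first, then mmu-miR-23a and mmu-miR-27b in changing places, then mmu-miR-24 and mmu-miR-27a. In FCx the means were 3425 ± 5009 CPM (SD, n = 3) for mmu-miR-23b, 2145 ± 2690 CPM for mmu-miR-23a and 1380 ± 124 CPM for mmu-miR-27b. The lower members in FCx were mmu-miR-24 at 442 ± 353 CPM and mmu-miR-27a at 243 ± 40.6 CPM. In HP they were 2981 ± 4344 CPM for mmu-miR-23b, 2036 ± 180 CPM for mmu-miR-27b, 1352 ± 1770 CPM for mmu-miR-23a, 441 ± 415 CPM for mmu-miR-24 and 404 ± 147 CPM for mmu-miR-27a. Each neighbour in this order differed from the next by less than the larger of their SDs, apart from mmu-miR-27b and mmu-miR-24 in FCx, and mmu-miR-27b exceeded mmu-miR-24 and mmu-miR-27a in each of the 6 libraries. For mmu-miR-23a, mmu-miR-23b and mmu-miR-24, the runs of a library were closer to each other than the highest and the lowest index. This did not hold for miR-27 in every library. mmu-miR-27a in FCx with index 3 had 248 CPM in the individual and 145 CPM in the pooled run, against 217 to 290 CPM between indexes. Over 30 pairs of values the median size of the log2 difference between the pooled and the individual run was 0.14, and the largest was 0.78. In HP with index 3 all members were higher in the pooled run, by 0.39 to 0.69.

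The differences between indexes were tested across all 431 miRNAs that passed the filter on low counts, with the region in the model (quasi-likelihood test of edgeR, p adjusted after Benjamini and Hochberg). Each index had 1 library in FCx and 1 in HP, so these p-values rest on the regions as replicates. Of the members, 4 of 5 passed the threshold of an adjusted p under 0.05, where 61.3% of all miRNAs tested did so. The largest log2 difference between indexes was 4.92 for mmu-miR-23b (adjusted p = 4.38e-33), 3.85 for mmu-miR-23a (adjusted p = 3.41e-22), 2.32 for mmu-miR-24 (adjusted p = 2.43e-11) and 0.97 for mmu-miR-27a (adjusted p = 0.0210). That of mmu-miR-27b was 0.53 and did not pass (adjusted p = 0.422). The median over the members was 2.32, and that over all miRNAs tested was 2.21, so that the members as a group were close to the rest. mmu-miR-23a and mmu-miR-23b fell from index 3 to index 7 by 3.85 (SE 0.39) and 4.92 (SE 0.42) on the log2 scale, and mmu-miR-24 rose by 2.32 (SE 0.36). How small the adjusted p-values of these 3 members were depended on the fit. With a filter of at least 10 counts, the edgeR test gave 4.5e-08, 5.5e-09 and 4.2e-06 in the same order. Without the region in the model it gave 0.00042, 0.00027 and 0.0043.

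The call for mmu-miR-27a was not firm. It was lost with library totals in place of TMM scaling (adjusted p = 0.370), without the region in the model (adjusted p = 0.356), without the FCx library with index 3 (adjusted p = 0.151) and without the HP library with index 3 (adjusted p = 0.184). mmu-miR-27b was not called in any of 14 alternatives (adjusted p 0.0853 to 0.999), whereas mmu-miR-23a, mmu-miR-23b and mmu-miR-24 were called in all 14.

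Within a library, the paralogs of miR-23 moved together and their share changed less than their level. mmu-miR-23a made up 36.2% of the miR-23 counts with index 3 in FCx (95% Wilson interval 35.0% to 37.5%), 58.9% with index 7 (54.8% to 62.8%) and 51.6% with index 11 (48.8% to 54.4%). In HP the shares were 29.8% (29.3% to 30.3%), 43.3% (41.4% to 45.2%) and 40.1% (38.6% to 41.5%). These intervals cover counting error only, since reads without molecular identifiers are not independent molecules. At each index the share of mmu-miR-23a was higher in FCx than in HP, by 0.42, 0.91 and 0.67 in the log2 ratio of mmu-miR-23a over mmu-miR-23b at indexes 3, 7 and 11. The mean log2 ratio was -0.07 ± 0.68 (SD, n = 3) in FCx and -0.74 ± 0.44 in HP, the regions overlapped, and the exact permutation test (two-sided) gave p = 0.3, or 0.8 adjusted over the 6 ratios computed. With 3 libraries in each region this test cannot go below 0.1, so no ratio could pass. When the libraries were paired by index as a replicate block, the exact sign-flip test gave p = 0.25, which is the smallest it allows with 3 pairs.

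mmu-miR-27b was the major paralog of miR-27 by counts in every library. mmu-miR-27a made up 12.6%, 13.99% and 18.6% of the miR-27 counts in FCx and 12.8%, 21.2% and 14.9% in HP at indexes 3, 7 and 11. These paralogs differ by C19U alone, fewer differences than the 2 mismatches allowed. How many reads were counted for the wrong paralog was not tested. The log2 ratio of mmu-miR-27a over mmu-miR-27b was -2.52 ± 0.35 in FCx and -2.39 ± 0.45 in HP (SD, n = 3 each), and the regions overlapped (exact permutation p = 0.6).

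The members of one cluster were not counted in equal numbers, and on chromosome 13 their ratio turned around with the index. mmu-miR-23b exceeded mmu-miR-27b by 6.08-fold with index 3 in FCx and by 4.35-fold in HP. With index 7 it was the other way, with mmu-miR-27b 8.27-fold above mmu-miR-23b in FCx and 7.01-fold in HP. With index 11, mmu-miR-27b was 1.38-fold higher in FCx and 3.36-fold higher in HP. These folds depended on how reads were counted. By the reads that the genome alignments place at the hairpins, mmu-miR-27b was 2.32-fold above mmu-miR-23b in FCx and 2.16-fold in HP with index 7, and with index 11 mmu-miR-23b was 1.15-fold higher in FCx and mmu-miR-27b 2.05-fold higher in HP.

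On chromosome 8, mmu-miR-23a was counted more often than mmu-miR-27a in 5 of the 6 libraries, by a fold that changed with the index. It was 24.05-fold above mmu-miR-27a with index 3 in FCx and 12.6-fold in HP. With index 7 it was 1.06-fold above mmu-miR-27a in FCx, and mmu-miR-27a was 2.47-fold above it in HP. With index 11 mmu-miR-23a was higher, by 3.38-fold in FCx and 1.14-fold in HP. The turn in HP with index 7 was small by the reads at the hairpins, with 957 for mmu-miR-23a and 1058 for mmu-miR-27a, and absent among reads of at least 20 nt, with 950 and 274.

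With both clusters summed, miR-23 was 8.33-fold above miR-27 with index 3 in FCx and 5.40-fold in HP. With index 7 miR-27 was 3.95-fold above miR-23 in FCx and 5.05-fold in HP. mmu-miR-24 stayed below the sum of mmu-miR-27a and mmu-miR-27b in all 6 libraries, by 1.86-fold (index 7) to 6.98-fold (index 3) in FCx and by 2.87-fold (index 7) to 12.96-fold (index 11) in HP. The regions overlapped in each of these 4 ratios. The mean differences of FCx against HP were 1.30 for mmu-miR-23a over mmu-miR-27a, 0.51 for mmu-miR-23b over mmu-miR-27b, 0.83 for the summed miR-23 over miR-27 and 0.70 for mmu-miR-24 over miR-27 on the log2 scale, with exact permutation p of 0.6, 0.8, 0.7 and 0.5. Without the FCx library with index 3 the second and the third of these differences turned to -0.94 and -0.47, and without the HP library with index 7 they turned to -0.49 and -0.14. The first fell to 0.08 without the FCx library with index 3 and the fourth to 0.08 without the FCx library with index 7. Leaving out 1 library leaves the indexes unequal between the regions. With the libraries paired by index, 3 of the 4 ratios were higher in FCx at each of the 3 indexes. At indexes 3, 7 and 11 the log2 differences were 0.93, 1.40 and 1.56 for mmu-miR-23a over mmu-miR-27a, 0.62, 0.35 and 1.52 for the summed miR-23 over miR-27, and 0.55, 0.62 and 0.94 for mmu-miR-24 over miR-27. The exact sign-flip test gave p = 0.25 for each of these 3, the smallest it allows, and p = 0.5 for mmu-miR-23b over mmu-miR-27b, which was higher in FCx at 2 of 3 indexes.

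**Figure D2:**
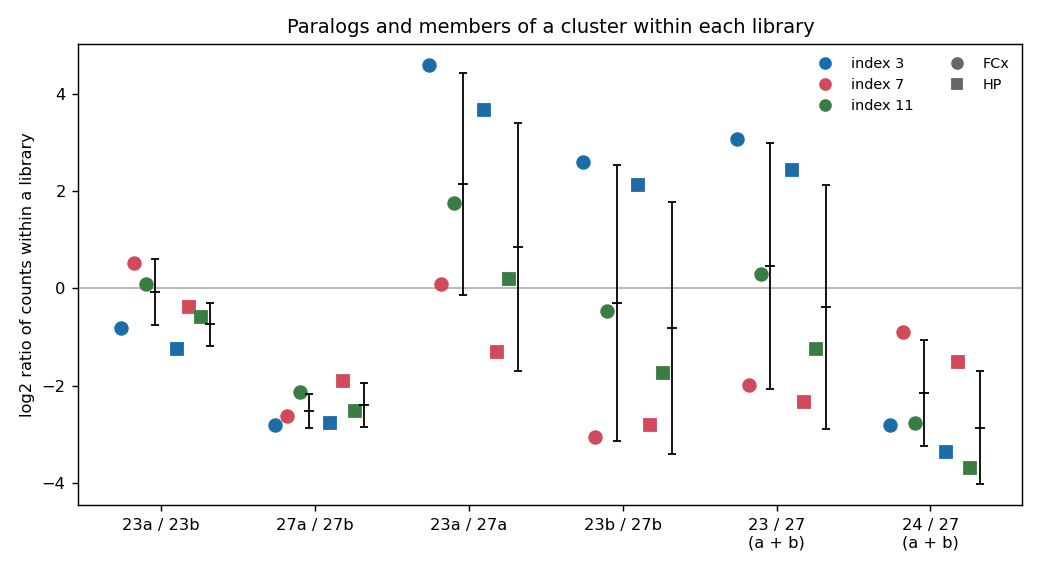
Log2 ratio of counts within each library for pairs of members, with FCx as circles, HP as squares and the index by colour. Black marks and bars are mean and SD of 3 libraries. The ratios of miR-23 to miR-27 are above 0 for both index 3 libraries and lie lowest at index 7, whereas 27a over 27b stays between -2.80 and -1.89.

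The region comparison asked which miRNAs were expressed on a different level in FCx and HP. Without a block for the index, 0 of 5 members passed the same edgeR test, and 0 of 5 had an unadjusted p under 0.05. Of all 431 miRNAs tested 0.464% passed, and 17 had an unadjusted p under 0.05. DESeq2 also called 0 members, with 0 at an unadjusted p under 0.05, and called 12 of 431 miRNAs. The log2 fold changes of FCx over HP were -1.11 (SE 0.73) for mmu-miR-27a, -0.99 (SE 0.66) for mmu-miR-27b, -0.52 (SE 1.34) for mmu-miR-23b, -0.11 (SE 0.92) for mmu-miR-24 and -0.01 (SE 1.13) for mmu-miR-23a. The median over all miRNAs tested was -0.37 on this scale.

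Libraries with the same index deviated together from the mean of their region, and with the index as a replicate block the spread was smaller. In this paired fit of the counts, mmu-miR-27a and mmu-miR-27b passed, both expressed on a higher level in HP. mmu-miR-27a had a log2 fold change of -1.10 (SE 0.28, adjusted p = 0.00175) and mmu-miR-27b of -0.98 (SE 0.29, adjusted p = 0.00764). These 2 of 5 members stood against 17.9% of all miRNAs tested, with 22 higher in FCx and 55 in HP. Values that did not pass were 0.19 (SE 0.29) for mmu-miR-23a, -0.47 (SE 0.29) for mmu-miR-23b and -0.29 (SE 0.29) for mmu-miR-24.

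Both calls depended on the scaling. With library totals in place of TMM in the replicate block fit, 0 of 5 members passed in edgeR's test, while 3 of 5 had an unadjusted p under 0.05, as did 93 of all 431 miRNAs. The log2 fold change was then -0.69 for mmu-miR-27a (adjusted p = 0.153), -0.56 for mmu-miR-27b (adjusted p = 0.2003) and 0.62 for mmu-miR-23a (adjusted p = 0.146). TMM placed the median of all miRNAs at -0.38 in the blocked fit and library totals placed it at -0.01, and the calls over all miRNAs changed from 22 higher in FCx and 55 higher in HP to 36 and 20. In plain CPM, mmu-miR-27b was the only member whose regions did not overlap, with all HP libraries above all FCx libraries, as was the case for 3.48% of all miRNAs tested in this direction. No member had all FCx libraries above all HP libraries, which held for 5.57% of the miRNAs tested. mmu-miR-27a was higher in HP at each of the 3 indexes, but the regions overlapped, with 269 CPM at index 3 in HP against 290 CPM at index 11 in FCx. In bulk tissue, fewer cells that express a miRNA and less of it per cell cannot be told apart.

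The genome alignments gave a further readout of the same reads, since each of the 6 hairpins could be inspected for the number, length and start of its reads. Reads from the 3′ arms of both Mir24 hairpins came to 96.9% to 102% of the counts of mmu-miR-24. For mmu-miR-23a they came to 78.0% to 90.9% and for mmu-miR-23b to 79.3% to 90.7%. These members thus kept their ranges between indexes, with 61.6-fold in FCx and 27.5-fold in HP for mmu-miR-23b.

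For miR-27 the alignments and the counts parted. At Mir27b the reads came to 75.7% of the counts with index 3, 22.3% with index 7 and 56.2% with index 11 in FCx, and to 70.4%, 27.1% and 55.3% in HP. The steady level of mmu-miR-27b across indexes was therefore not seen in the alignments. On the CPM scale, with the miRNA counts of the library as the total, Mir27b had 1145, 304 and 711 in FCx and 1293, 565 and 1210 in HP. By this measure the range was 3.77-fold in FCx and 2.29-fold in HP with index 7 lowest in both regions, and the regions overlapped. At Mir27a the reads came to 38.1% to 77.6% of the counts of mmu-miR-27a. The higher level of mmu-miR-27a in HP was not seen among the reads at Mir27a of at least 20 nt, which on the same scale came to 138, 69.8 and 132 in FCx and to 127, 55.3 and 133 in HP at indexes 3, 7 and 11. With reads of all lengths the values were 169, 111 and 176 in FCx and 161, 213 and 204 in HP, lower in HP at index 3 and higher at the other indexes. Among reads of at least 20 nt at Mir27b, HP was higher at each index, with 1253, 419 and 1141 against 1127, 259 and 668 in FCx. Which reads the count files assigned to miR-27 beyond those placed at its hairpins cannot be told from the counts, which carry no read length.

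**Figure D3:**
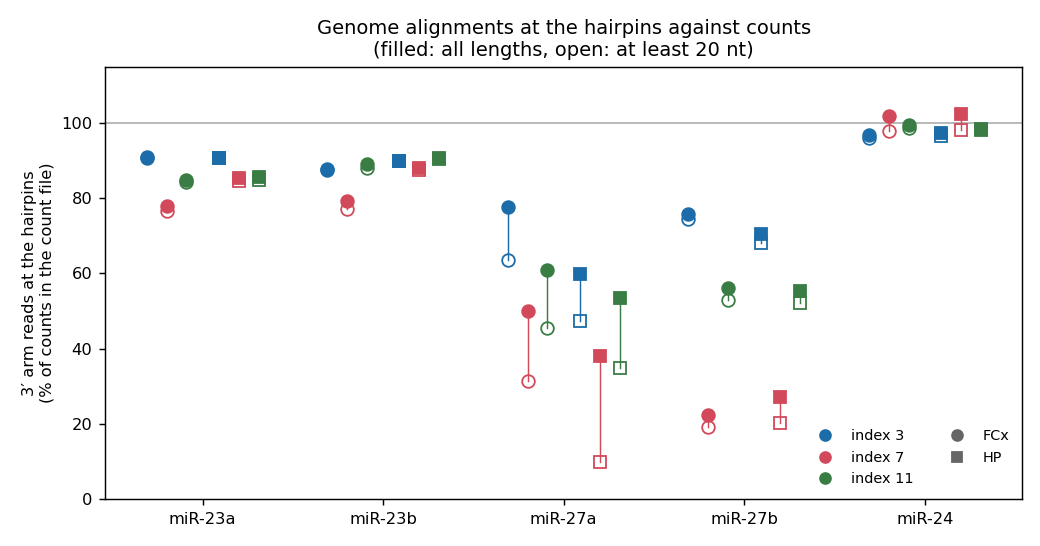
Reads from the 3′ arm at the hairpins in percent of the counts in the count files, per member and library, with FCx as circles, HP as squares and the index by colour. Filled marks count reads of all lengths and open marks those of at least 20 nt. miR-24 lies near 100%, whereas miR-27b falls to 22.3% and 27.1% at index 7.

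Short reads took a larger share at Mir27a than at the other hairpins. Over all libraries, 22 nt was the commonest length at each hairpin, with 92.8% to 95.8% of the 3′ arm reads at the hairpins of miR-23 and miR-24, 90.2% at Mir27b and 52.6% at Mir27a. Reads of 17 nt made up 39.9% at Mir27a and 7.80% at Mir27b, against between 0.0621% (Mir23b) and 2.55% (Mir24-1) at the other hairpins. At indexes 3, 7 and 11 the 17 nt share at Mir27a reached 18.2%, 32.1% and 20% in FCx and 19.0%, 68.8% and 21.98% in HP, so that index 7 was the highest in both regions. At Mir27b it reached 1.12%, 11.9% and 3.66% in FCx, compared with 2.82%, 23.7% and 3.53% for HP. The HP library with index 7 alone gave 728 of the 1095 reads of 17 nt at Mir27a and 665 of the 1030 at Mir27b, and without it the shares over the other libraries were 21.7% and 3.51%.

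**Figure D4:**
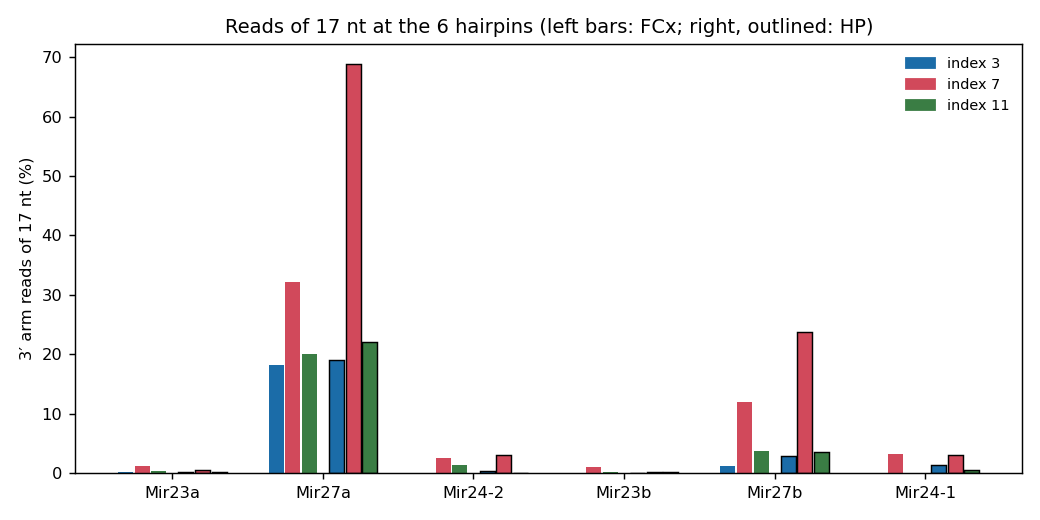
Share of 3′ arm reads that are 17 nt long at each of the 6 hairpins, in percent, with 1 bar per library, FCx on the left without outline, HP on the right with outline, and the index by colour. The bars are high at Mir27a, up to 68.8% in HP with index 7, and lower at Mir27b, whereas the hairpins of miR-23 and miR-24 stay below 4%. Reads of 17 nt do not tell Mir27a from Mir27b.

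Reads of 17 nt end before the base by which the paralogs of miR-27 differ, and they were shared out evenly. There were 1095 at Mir27a and 1030 at Mir27b, which is 51.5% at Mir27a. Among reads of at least 20 nt, which reach that base, 1464 lay at Mir27a and 11978 at Mir27b, or 10.9% at Mir27a. Reads from both copies of mmu-miR-24, which have the same sequence, were split likewise, with 3851 at Mir24-2 and 3759 at Mir24-1. The first 17 bases of miR-27 were found at 1 other place in the genome, where 672 reads of 17 nt were placed in HP with index 7 and 47 in FCx with index 7. Among the reads of at least 20 nt, Mir27a took shares at indexes 3, 7 and 11 of 10.9%, 21.2% and 16.5% for FCx, compared with 9.22%, 11.6% and 10.5% for HP, thus higher in FCx than in HP at each index. The log2 ratio of mmu-miR-27a over mmu-miR-27b then differed by 0.69 between FCx and HP, against -0.12 by counts (exact permutation p = 0.2 for the reads of at least 20 nt, a cut-off chosen after the data were seen).

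The starts of the reads also differed between paralogs. At Mir23b, 7.07% to 11.2% of the reads of at least 20 nt started 1 base after the commonest start, in every library of both regions. At Mir23a this share was 0.372% to 0.971%. A shift of the start by 1 base moves the seed. At Mir23a, Mir27a, Mir27b, Mir24-2 and Mir24-1 the commonest start was that of the RefSeq entry, and for Mir23b there was no entry to compare.

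The star forms, which come from the opposite arm, were rare. The count files list 4 of 6 of them, mmu-miR-24-1*, mmu-miR-24-2*, mmu-miR-27a* and mmu-miR-27b*. The alignments nevertheless placed 147 reads on the 5′ arm of Mir23b, 90 of them in HP with index 7, and 4 on that of Mir23a. mmu-miR-27b* was the highest, at a mean of 31.2 ± 16.5 CPM in FCx (SD, n = 3) and of 36.0 ± 19.6 CPM in HP, and mmu-miR-27a* had 3 counts in all, from HP. Of the 4 listed star forms 3 passed the test between indexes, close to the 61.3% of all miRNAs tested. Between regions 0 passed in edgeR's test, against 0.464% of all miRNAs without and 17.9% with the replicate block. At an unadjusted p under 0.05 there were 0 star forms in either fit, against 17 and 119 of 431 miRNAs. mmu-miR-24-1* and mmu-miR-24-2* were lowest at index 7, with log2 differences from index 3 of -3.36 (SE 0.86) and -2.08 (SE 0.59), whereas mmu-miR-24 was highest there. At the hairpins, the 5′ arm therefore took 18.0% of the reads of Mir24-2 with index 11 in FCx but 0.753% with index 7, and 17.05% and 0.470% in HP.

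**Figure D5:**
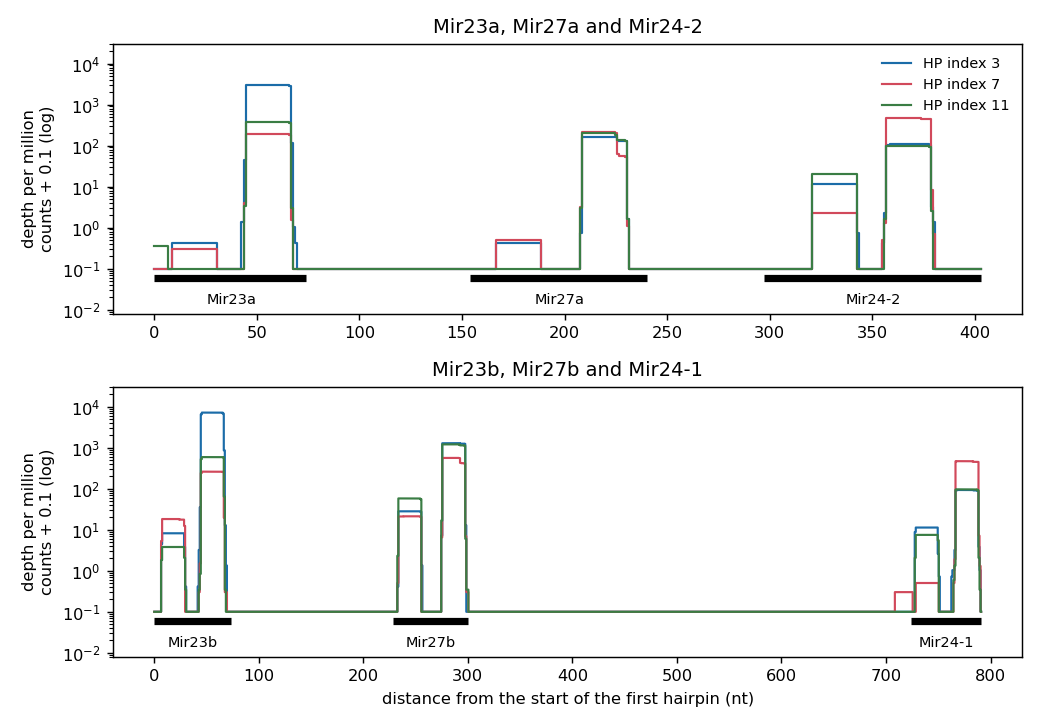
Read depth along both clusters in the 3 HP libraries, scaled as CPM plus 0.1 on a log axis, against the distance in nucleotides from the start of the first hairpin. Black bars mark the 6 hairpins. The 3′ arm is the higher peak at each hairpin, and the order of the indexes changes from Mir23a and Mir23b, where index 3 is highest, to Mir24-2 and Mir24-1, where index 7 is.

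The miRNAs with the most similar profiles were sought over the 6 libraries among 138 others averaging 100 CPM or more, by Pearson's r of log2(CPM + 1). Since the libraries share pools and indexes, r is given as a description. mmu-miR-23a was most like mmu-miR-125b-5p (r = 0.992) and mmu-miR-23b (r = 0.982), and mmu-miR-23b was most like mmu-miR-30c (r = 0.996) and mmu-miR-125b-5p (r = 0.992). mmu-miR-24 was most like mmu-miR-673-5p (r = 0.986) and mmu-miR-1 (r = 0.985). Profiles near those of mmu-miR-27a (mmu-miR-148b, r = 0.854, and mmu-miR-323-3p, r = 0.830) and mmu-miR-27b (mmu-let-7f, r = 0.842, and mmu-let-7c, r = 0.752) were less alike. Within a cluster r was -0.55 for mmu-miR-23a with mmu-miR-27a and -0.01 for mmu-miR-23b with mmu-miR-27b, against 0.98 for mmu-miR-23a with its paralog mmu-miR-23b and 0.72 for mmu-miR-27a with mmu-miR-27b.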

How the data were processed

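Small RNAs of 15 to 35 nt were sequenced from 6 libraries in 12 lane files. The deposited count files hold raw counts per mature miRNA: the authors sorted reads by index, trimmed them, removed reads under 14 nt, and aligned them with Bowtie to miRBase version 11, with 2 mismatches allowed. The deposited alignment files place the same reads on NCBIM37 and carry a constant score, which was not used beyond the positions; how the authors placed reads with several matches is not given in the sources used here. Both runs of a library were summed and CPM taken over all listed miRNAs. A total of 431 of 469 miRNAs had at least 2 counts in a region. They were tested with edgeR 4.0.16 (TMM, quasi-likelihood, Benjamini-Hochberg, threshold 0.05) in R 4.3.3, for FCx against HP with no block and for the index with the region in the model. DESeq2 1.42.0, other scalings, filters, single runs, left-out libraries and the index as a replicate block were alternatives. Ratios were compared by exact permutation tests (scipy 1.17.1). The numbers of the labels pair the samples by index. Over 431 miRNAs, deviations from the region means correlated with r = 0.796, 0.846 and 0.854 between same-index libraries. Between others r was -0.618 to -0.226, where negative values are set in part by taking deviations from the mean of the same libraries. RefSeq hairpins were matched to NCBIM37, and reads overlapping them were counted by arm, length and start. All 5 members, the star forms and, for each member, the 2 most alike miRNAs are named; markers are 3 short lists. Members and lists were chosen with earlier results of these data known. Of the 469 names, 96 matched RefSeq names exactly, among them 22 of the 139 with a mean of at least 100 CPM, and none of these 22 shared its first 4 bases with a member. Intervals cover 95% and a count of 0 allows 3 counts.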

Additional observations from a re-analysis of the deposited data

How the results depend on the processing

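Of 66 recomputed ratio differences 58 kept their direction, and their exact p could not pass in any setting. Among the 66 are 6 sign-flip tests, which repeat the reported difference and could not turn it. The count of members called between regions was equal to the reported one in 15 of 16 settings, and that between indexes in 10 of 14. The replicate block raised the members called between FCx and HP from 0 to 2. Log2 ratio differences of miR-27a over miR-27b turned to 0.25 with genome alignments at the hairpins and to 0.69 with alignments of at least 20 nt, an alternative chosen after seeing the data; leaving out 1 library gave -0.32 to 0.13 for this difference, -0.94 to 1.98 for miR-23b over miR-27b, 0.08 to 2.70 for miR-23a over miR-27a, 0.08 to 1.37 for miR-24 over miR-27 and -0.47 to 2.24 for summed miR-23 over miR-27, the reversals being without FCx replicate 1 (index 3) or HP replicate 2 (index 7). The region fold change of miR-23a turned to 0.67 with library totals, 0.33 with DESeq2 size factors, 0.38 with no filter, 0.11 with at least 10 counts, 0.28 with individual lanes, 0.33 with DESeq2, 0.63 with the exact test on lane files, 0.19 with the replicate block and 0.62 with the block and library totals. That of miR-23b turned to 0.20 with library totals and 0.16 with the exact test. That of miR-24 turned to 0.0051 with library totals, 0.096 with DESeq2 size factors, 0.062 with no filter, 0.096 with DESeq2, 0.0034 with the exact test and 0.12 with the block and library totals. Leaving out 1 library gave these 3 values of -1.20 to 1.99, -2.48 to 2.07 and -0.96 to 0.84. None of them passed the test in any fit. The unblocked fold change of miR-27b, which did not pass, was -0.38 without HP replicate 3 (index 11), and that of miR-27a -0.59. With library totals, the largest index difference of miR-27b was 0.012 with the order of indexes reversed. Members called between indexes were 3 or 4 under every alternative. The replicate block changed no other call among the members, whereas over all 431 miRNAs the calls rose from 2 to 77. The cause of these changes was not tested. FCx values rest on fewer counts, down to 85 for miR-27a, and all libraries of a region come from 1 pool, so that animals were not replicated.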
